A study of Homo sapiens with 2 samples.

Results

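The carbonic anhydrase genes on the arrays were examined in MEG-01 cells that expressed a dominant negative form of GAS2 (GAS2DN) and in their control cells (Venus). The family was represented by 10 genes chosen by symbol, of 19775 genes to which the array annotation assigns a probe set of their own. Probe sets assigned to 1 gene alone were used, and 9 of the 10 genes had 21 of them. CA9, the hypoxia-inducible isozyme of the cell surface, had no probe set assigned to it in the annotation used and was not analysed here.

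Carbonic anhydrases are zinc enzymes that convert carbon dioxide and water into bicarbonate and a proton, and back. CA1 and CA2 are the cytosolic isozymes of red cells, where they serve carbon dioxide transport together with the anion exchanger of the membrane. CA3 and CA13 are cytosolic as well, CA5B is mitochondrial, and CA4, CA12 and CA14 act at the cell surface. CA8 has lost the catalytic activity and belongs to the carbonic anhydrase-related proteins.

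MEG-01 is a megakaryoblastic line of chronic myeloid leukemia (CML), which carries BCR-ABL. GAS2DN cells were transduced with a lentivirus that carried a truncated GAS2 followed by the yellow fluorescent protein Venus, and Venus cells with the control lentivirus. In both, the transgene was driven by the spleen focus forming virus promoter, and fluorescent cells were purified with a cell sorter. The RNA of 3 extracts was pooled for each condition and hybridised to 1 Human U133 Plus 2.0 array. There was therefore no replicate of a condition, no test between the conditions, and the precision of every ratio is limited by the number of arrays.

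Values are MAS5 signals in arbitrary units, and each ratio is that of GAS2DN to Venus cells in the same probe set. The median signal was 69.1 on the GAS2DN array and 55.6 on the Venus array. Probe sets whose brighter signal reached the median of its array were called eligible. Each gene was represented by its brightest probe set, called the main one, where those ending in _x_at, which may cross-hybridise, gave way to any other. A gene whose main probe set was eligible counted as measured. The signals of different probe sets do not rank the RNA levels of their genes.
Markers were checked by their main probe sets. Both signals reached the array median for 7 of 11 megakaryocyte and platelet markers and for 17 of 24 erythroid markers. The same held for 2 of 5 lymphoid, 1 of 7 granulocyte and monocyte, and 2 of 8 fibroblast and epithelial markers. Over all genes it held for 11156 of 19775. The chemokines PF4 and PPBP of platelet granules were below the median on both arrays. GAS2 was read by a single dim probe set, with a signal of 34.7 in GAS2DN cells and 24.3 in Venus cells, and the files do not give where it lies relative to the truncation.

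The erythroid isozymes CA1 and CA2 had bright main probe sets whose signals in GAS2DN cells were within 1.14-fold of those in Venus cells. CA3 was 1.80-fold higher in GAS2DN cells, the probe sets of CA13 differed in direction, and CA8 was nearly equal. Of the 21 probe sets 12 were eligible, in 8 genes, and 7 genes were measured: CA1, CA2, CA3, CA13, CA8, CA5B and CA14. No carbonic anhydrase counted as over 3-fold higher, with an eligible probe set over 3-fold higher and none over 3-fold lower, against 8.36% of 13342 genes. None counted as over 3-fold lower, against 5.76%. CA12 had eligible probe sets over 3-fold in both directions, which held for 0.33% of genes. These backgrounds rest mostly on dim probe sets, and their split between higher and lower genes was 59.2% higher, but 47.0% after loess and 49.1% after quantile normalization.

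**Figure D1:**
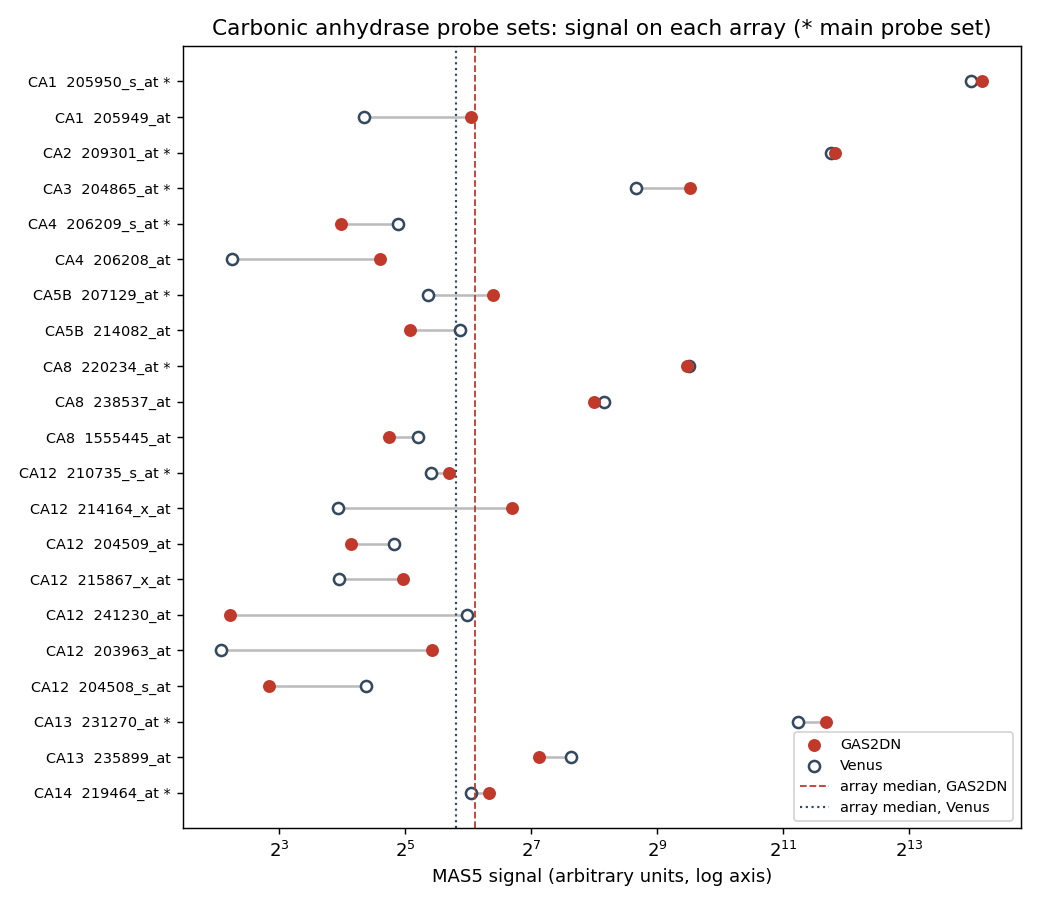
MAS5 signal (log axis) of the 21 carbonic anhydrase probe sets on the GAS2DN array (filled red circles) and the Venus array (open circles), with the median of each array as a vertical line and main probe sets marked by an asterisk. The circles of CA1, CA2 and CA8 lie close together in their main probe sets. Those of CA4 and CA12 lie mostly left of the medians and are far apart in several probe sets, but not in the main one of CA12, with 51.9 in GAS2DN cells and 42.4 in Venus cells.

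CA1, the most abundant carbonic anhydrase of red cells, had a signal of 18419 in GAS2DN cells and 16222 in Venus cells in its main probe set, 205950_s_at. The ratio was 1.14, a log2 ratio of 0.18. Its second probe set, 205949_at, had 65.7 in GAS2DN cells and 20.2 in Venus cells, a ratio of 3.24, but both of these signals lay below the median of their arrays. The bright probe set of CA1 thus differed little between the arrays, and the dim one did not share the size of its ratio.
CA2, the fast cytosolic isozyme of red cells, kidney and osteoclasts, was read by 1 probe set, 209301_at. Its signal was 3622 in GAS2DN cells and 3486 in Venus cells, a ratio of 1.04. Its log2 ratio of 0.06 was -0.07 when the arrays were centred on the median ratio, so that no direction can be given for CA2.
To read these ratios against the array, all probe sets were ordered by mean log2 signal into 10 bins of equal size. In the brightest bin, which holds the main probe sets of CA1 and CA2, 5% of probe sets had a log2 ratio below -0.47 and 5% above 0.38. CA2 lay between the quartiles of that bin, -0.12 and 0.18, and CA1 just above its upper quartile. Probe sets of the same gene were the only repeated measure. The SD of log2 ratios between them was 0.56 for the probe sets of that bin, larger than the log2 ratio of either isozyme. It was taken around the mean of all probe sets of a gene, whatever their signal. In bright bins it therefore also holds the scatter of dimmer probe sets of the same genes, and it is wider than a spread between bright probe sets alone would need to be.

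CA13 and CA3 are the other cytosolic members. In the RefSeq annotation of GRCh38.p14 CA13, CA1, CA3 and CA2 follow each other in this order, with 0 other protein-coding genes between them. The log2 ratios of all 4 were above 0 in their main probe sets, between 0.06 and 0.85, although that of CA2 was below 0 after centring and that of CA13 by the median over its probe sets. A log2 ratio above 0 was found in 56.2% of 13086 measured genes, and their median was 0.06.
CA13 had a signal of 3295 in GAS2DN cells and 2405 in Venus cells in 231270_at, a ratio of 1.37. In its second probe set, 235899_at, the signals were 139 in GAS2DN cells and 199 in Venus cells, a ratio of 0.699. Both probe sets were at or above the median on both arrays, and they differed in direction. The log2 ratio of 0.45 lay above the 95th percentile of its bin, 0.38, but below the SD between probe sets of 1 gene there, 0.56.
CA3, known as the isozyme of skeletal muscle and fat with a low catalytic activity, had 732 in GAS2DN cells and 407 in Venus cells in its single probe set, 204865_at. Among the 8 member probe sets at or above the median on both arrays, this was the largest difference, with a ratio of 1.80 and a log2 ratio of 0.85. In its bin the 95th percentile was 0.68 and the SD between probe sets of 1 gene 0.67, both smaller than the log2 ratio of CA3. It was 0.73 to 0.85 under the alternatives of processing. The filters, the choices among probe sets and the raising of low signals cannot change the ratio of a single bright probe set. No second probe set was there to compare that of CA3 with, and a higher number of cells with the RNA and more RNA per cell cannot be told apart in such pools.

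CA8, the inactive member that binds an inositol trisphosphate receptor, was read by 3 probe sets. In 220234_at, the main one, the signal was 709 in GAS2DN cells and 727 in Venus cells, a ratio of 0.976. In 238537_at it was 255 in GAS2DN cells and 286 in Venus cells, a ratio of 0.893. Its remaining probe set, 1555445_at, was dim, with 26.8 in GAS2DN cells and 36.8 in Venus cells, a ratio of 0.729. CA8 was the only member with 2 or more probe sets whose ratios were all below 1, and its bright probe sets were at most 1.12-fold lower in GAS2DN cells.

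**Figure D2:**
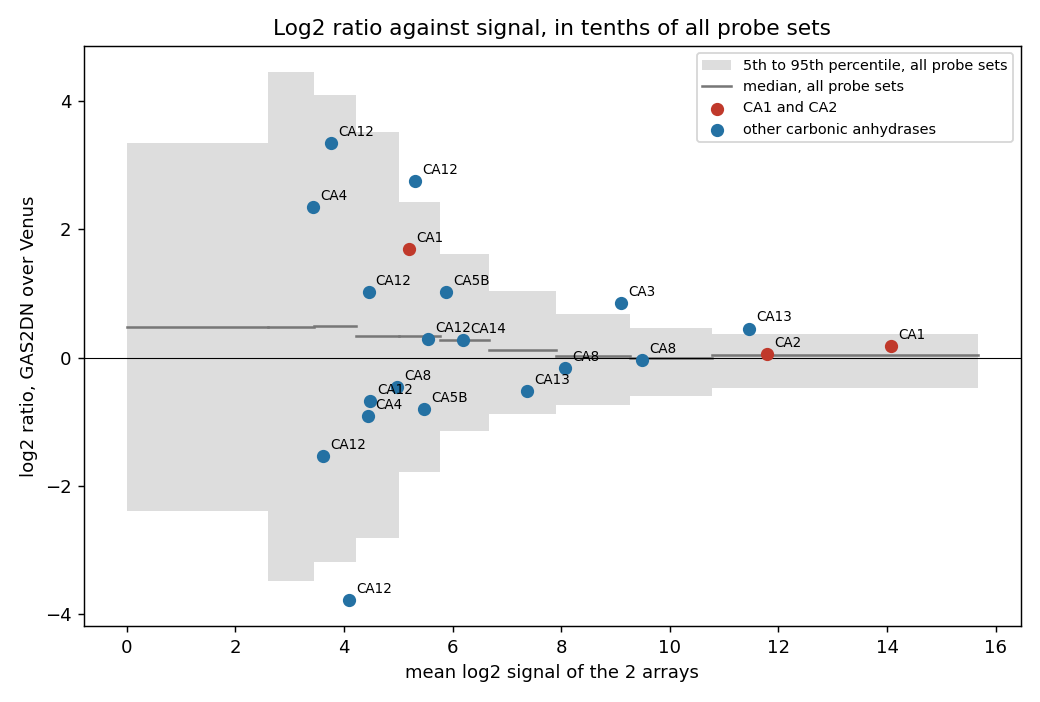
Log2 ratio, GAS2DN over Venus, against the mean log2 signal of the arrays for the probe sets of CA1 and CA2 (red) and the other carbonic anhydrases (blue). Grey boxes span the 5th to 95th percentile of all probe sets in each of 10 bins of signal and grey lines their medians; CA3 and the bright probe set of CA13 lie above the box, as does 1 probe set of CA12, while another lies below.

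The remaining members had at least 1 signal below or close to the array median. CA5B, a mitochondrial isozyme, had 83.8 in GAS2DN cells and 41.3 in Venus cells in 207129_at, a ratio of 2.03. In 214082_at it had 33.6 in GAS2DN cells and 58.6 in Venus cells, a ratio of 0.572. CA5B was thus the 1 measured member over 2-fold higher by its main probe set, against 7.91% of measured genes, while 0 members were over 2-fold lower, against 4.45%. The ratio of its main probe set was 1.51 with low signals raised to the array median. That alternative gives a probe set below the median on both arrays a ratio of 1.24, because the array medians differ. The log2 ratio of 1.02 of the main probe set was about as large as the SD between probe sets of 1 gene for its bin, 1.02. Another probe set, 238435_at, is assigned to CA5B and its pseudogene CA5BP1 together and was not counted. Its signals were 135 in GAS2DN cells and 149 in Venus cells, a log2 ratio of -0.14.
CA14, a transmembrane isozyme, had 80.1 in GAS2DN cells and 66.1 in Venus cells in 219464_at, a ratio of 1.21. Its log2 ratio of 0.28 was close to the median of its bin, 0.28, and was 0.01 after loess and -0.02 after quantile normalization.
CA4, which is anchored to the membrane by a lipid, had no eligible probe set. Its signals were 15.8 in GAS2DN cells and 29.6 in Venus cells in 206209_s_at, but 24.3 in GAS2DN cells and 4.76 in Venus cells in 206208_at. The ratios of 0.533 and 5.10 lay on opposite sides of 1, and all 4 signals were below the median of their arrays.

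CA12, a transmembrane isozyme with its active site outside the cell, had the most probe sets, 7, and the widest range. In 241230_at the signal was 4.63 in GAS2DN cells and 63.3 in Venus cells, a ratio of 0.0731. In 214164_x_at it was 103 in GAS2DN cells and 15.3 in Venus cells, a ratio of 6.75. These were the eligible ones, and each reached the median on 1 array only.
The other probe sets of CA12 were below the median on both arrays. The strongest of the ratios above 1 was 10.2 in 203963_at, with 43.1 in GAS2DN cells and 4.22 in Venus cells. In 204508_s_at the signal was 7.16 in GAS2DN cells and 20.7 in Venus cells, a ratio of 0.346. The main probe set, 210735_s_at, had 51.9 in GAS2DN cells and 42.4 in Venus cells, a ratio of 1.22. Ratios of 2.03 and 0.624 were found in 215867_x_at and 204509_at.
In all, 4 of the 7 were higher and 3 lower in GAS2DN cells, with an SD of 2.47 on the log2 scale around a mean of 0.21. The range of 7.13 between the lowest and the highest log2 ratio compares with a median range of 3.46 among the 171 genes with 7 probe sets, of which 3, CA12 included, had a range of at least that size. These genes were not matched for signal. The probe sets of CA12 lay in the dim bins 3 to 5, counted from the dimmest, where the SD between probe sets of 1 gene was 1.37 to 2.18. How rare such a range is among equally dim genes was not tested. With low signals raised to the array median, 241230_at had a ratio of 1.09 and 214164_x_at 1.86. Raising gives a probe set below the median on both arrays a ratio of 1.24, not 1. The 1.09 is therefore not a higher signal in GAS2DN cells. No direction can be given for CA12 from these arrays.

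**Figure D3:**
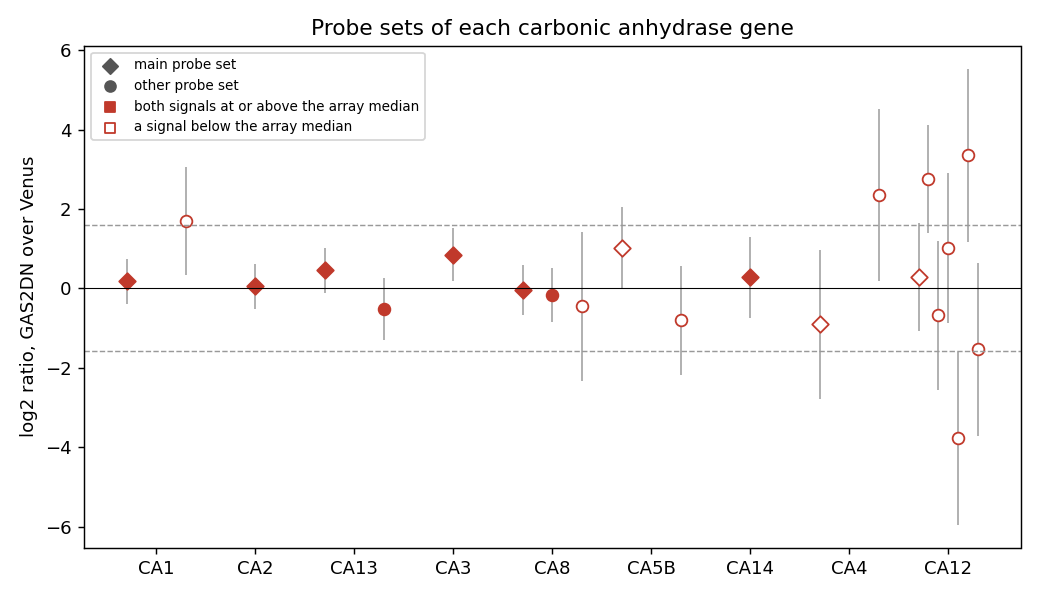
Log2 ratio, GAS2DN over Venus, for each probe set of 9 carbonic anhydrases, with main probe sets as diamonds and filled symbols where both signals reached the array median; dashed lines mark 3-fold. Grey bars are the SD for probe sets in the same bin of signal, around the mean of all probe sets of their gene, not an error between replicates. The open symbols of CA4, CA5B and CA12 lie on both sides of 0.

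Of the 21 probe sets 3 lay above the 95th percentile of their bin, those of CA3, CA13 and CA12 described above, and 1 of CA12 lay below the 5th percentile. The split by brightness was similar to that of the array as a whole. In the 8 member probe sets whose signals reached the median on both arrays the log2 ratios ran from -0.52 to 0.85, and the median of their sizes without sign was 0.23, against 0.24 over all 24164 such probe sets. In the other 13 they ran from -3.77 to 3.35 and the median size was 1.03, against 1.23 over 30449 probe sets. Over 3-fold higher were 4 of these 13, or 30.8%, against 25.2% of the array, and 1 was lower, or 7.69%, against 14.8%. Of the 6 members with 2 or more probe sets 4 had ratios on both sides of 1, namely CA4, CA5B, CA12 and CA13. The share of such genes over the whole array was not counted, so this number cannot be read as a trait of the family.

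The bright erythroid isozymes were set against the other measured members. CA1 and CA2 had a mean log2 ratio of 0.12, and CA3, CA13, CA8, CA5B and CA14 had a median of 0.45, a difference of -0.33. No error of this difference can be given from 1 array per condition. It was -0.25 where both signals had to reach the median, which leaves out CA5B, eligible through its GAS2DN signal alone. By the median over eligible probe sets, which adds CA12 and lowers CA5B and CA13, it was 0.08. Over all 7 measured members the median log2 ratio was 0.28, and 6 were above 0, against 56.2% of all measured genes. After centring and after quantile normalization 5 of the 7 were above 0, and by the median over eligible probe sets 5 of 8. The median was 0.09 after loess and 0.10 after quantile normalization.

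**Figure D4:**
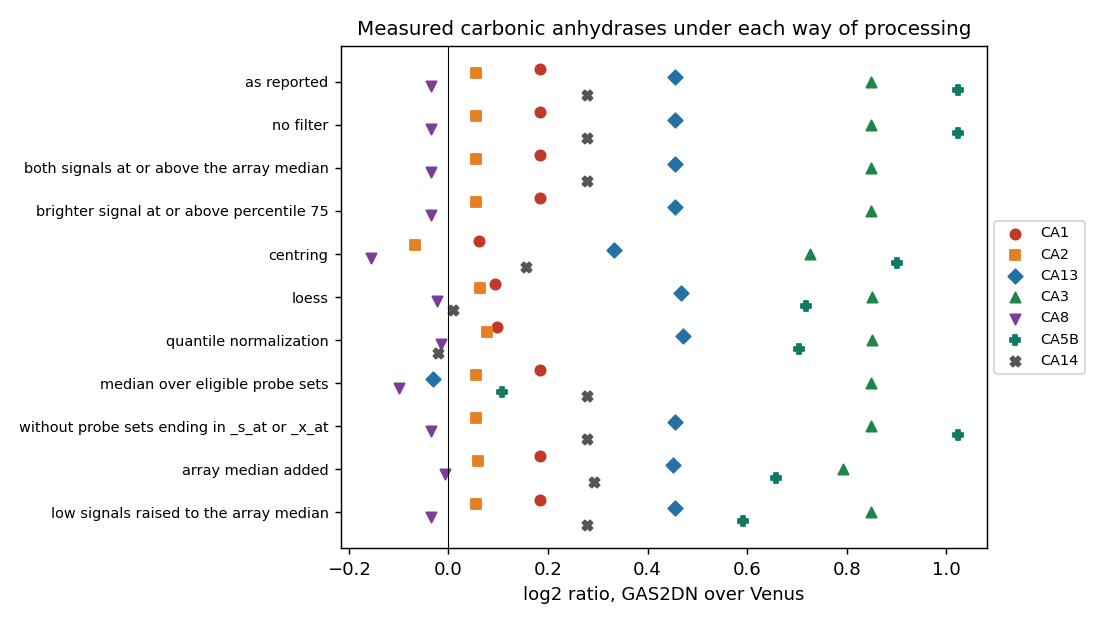
Log2 ratio, GAS2DN over Venus, of the 7 measured carbonic anhydrases as reported and under 10 alternatives of processing; a missing symbol means that the gene was not measured under that alternative. CA3 stays between 0.73 and 0.85 throughout, CA8 below 0, and CA2, CA13 and CA14 change sign under 1 alternative each. The ratio of CA3, with its single bright probe set, can change only by the scalings and the added median.

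The genes around the carbonic anhydrases were described from lists of the pathway. Among the other family genes, CA11, an inactive relative of CA8, had a signal of 296 in GAS2DN cells and 311 in Venus cells, a log2 ratio of -0.07. PTPRG, a receptor phosphatase with a carbonic anhydrase-like domain, had 259 in GAS2DN cells and 249 in Venus cells, a log2 ratio of 0.06. The pseudogene CA5BP1 had 323 in GAS2DN cells and 317 in Venus cells in its main probe set, but 12.9 in GAS2DN cells and 122 in Venus cells in 213363_at, a ratio of 0.106. That probe set was eligible through its Venus signal alone. By the 3-fold count 1 of 3 family genes with an eligible probe set was lower and 0 higher, against 5.76% and 8.36% of genes. The main probe sets of CA5A, CA6, CA7, CA10 and PTPRZ1 were not eligible.
Of 22 listed partners in bicarbonate, proton, lactate and gas transport 13 were measured. Their median log2 ratio was 0.12, and 10 were above 0, against a median of 0.06 and 56.2% over all measured genes. SLC4A1, the anion exchanger with which CA2 works in red cells, had 138 in GAS2DN cells and 11.7 in Venus cells in its main probe set, a log2 ratio of 3.56, but -3.65 in its other one. SLC4A5, a bicarbonate cotransporter, had 30.0 in GAS2DN cells and 108 in Venus cells, a log2 ratio of -1.84, with 3.32 and 4.31 in its other probe sets. Each of these 5 probe sets had at least 1 signal below the array median, and no other measured partner was over 2-fold in either direction by its main probe set. By the main probe set 1 of the 13 was thus over 2-fold higher and 1 lower, against 7.91% and 4.45% of all measured genes. Over 3-fold by an eligible probe set other than the main one was SLC4A8, with 16.1 in GAS2DN cells and 105 in Venus cells. By the 3-fold count 1 of 14 partners with an eligible probe set was higher, 1 lower and 1 in both directions, against 8.36%, 5.76% and 0.33% of genes.
All 28 listed hypoxia-inducible genes, among which CA9 and CA12 are often counted, were measured. Their median log2 ratio was 0.14, 19 were above 0, and 0 were over 2-fold by the main probe set, against 7.91% higher and 4.45% lower of all measured genes. Both signals reached the array median in all 28, but only in 11156 of the 13086 measured genes, so that this background includes dimmer genes. PDK1 and ARNT counted as over 3-fold higher by another probe set, against 8.36% of genes, and both of these probe sets had a Venus signal below the array median. These 2 genes and SLC4A8 were named after their values were seen. The 21 measured erythroid markers had a median of 0.30, with 17 above 0. The 8 megakaryocyte and platelet markers had a median of 0.47, with 7 above 0. Over all measured genes the median was 0.06, with 56.2% above 0. By the 3-fold count 3 of the 21 erythroid markers were higher and 2 lower. Of the 8 megakaryocyte and platelet markers 1 was higher and 1 lower, against 8.36% and 5.76% of genes. Over all main probe sets of a list, measured or not, the summed signal of the erythroid markers was 93909 in GAS2DN cells and 77728 in Venus cells. That of the megakaryocyte and platelet markers was 19350 in GAS2DN cells and 20189 in Venus cells, lower although their median log2 ratio was above 0. FLI1, the 1 measured marker of that list below 0, had 6806 in GAS2DN cells and 10408 in Venus cells, a larger fall than that of the sum. Such sums follow the brightest probe sets. The part of the erythroid and the megakaryocyte markers in the ratios of CA1 and CA2 was not tested. Over 2-fold among the 21 erythroid markers were SLC4A1, the globin HBM with a log2 ratio of 1.50 and the embryonic globin HBE1 with -2.19, each with a signal below the array median. These are 2 genes higher and 1 lower, close to the shares of 7.91% and 4.45% over all measured genes.

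**Figure D5:**
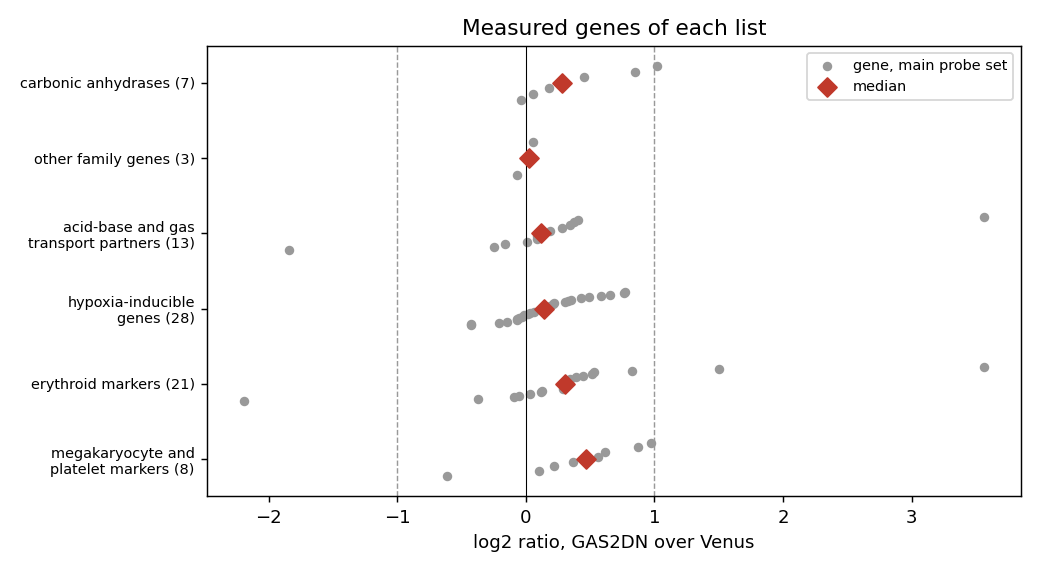
Log2 ratio, GAS2DN over Venus, of the main probe sets of measured genes (grey) and their median (red diamonds) for the carbonic anhydrases and 5 lists around them, with how many genes were measured in brackets; dashed lines mark 2-fold. The median of the 7 carbonic anhydrases, 0.28, lies between those of the 28 hypoxia-inducible genes, 0.14, and the 21 erythroid markers, 0.30. That 0.28 is the value of CA14, and the median of the 7 was 0.09 after loess. Medians of the lists after loess were not computed, so this order depends on the processing.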

How the data were processed

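RNA pooled from 3 extracts of GAS2DN or Venus transduced MEG-01 cells was hybridised to 1 array per condition. The authors deposited log2 values of MAS5 signals, which hold no detection calls. The version of MAS5 is not given in the sources used here. The 2% trimmed mean of the signals was 500.1 on either array. Of 54675 probe sets 62 controls were left out, 41091 of the rest were assigned to 1 gene by the platform's annotation, and symbols were updated through RefSeq for 41037 of these.

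Ratios were computed from the deposited log2 values without further scaling. The members and lists were chosen with earlier results of these data known. All members are named, and of each list at most the 2 highest and 2 lowest measured genes over 2-fold. The family genes CA11, PTPRG and CA5BP1 and the markers PF4, PPBP and FLI1 were named after their values were seen. No gene is named for a like pattern, because 2 arrays give a single difference per gene. In the alternatives, dim probe sets were kept, or left out unless both signals reached the array median or the brighter one percentile 75. Arrays were also scaled by centring, by loess (span 0.2, 3 iterations) or by quantiles. Genes were also read by the median over eligible probe sets, and without those whose names end in _s_at or _x_at. Low signals were raised to the array median, or that median was added to all. The steps were tested on simulated data. The software was Python 3.11.15 and, within it, numpy 2.4.6, pandas 2.3.3, statsmodels 0.14.6 and matplotlib 3.10.9.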

Additional observations from a re-analysis of the deposited data

How the results depend on the processing

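The count of carbonic anhydrases over 3-fold higher was 2 without a filter on dim probe sets, through CA1 and CA4, and 0 under the other 9 alternatives. The count over 3-fold lower was 1 without probe sets whose names end in _s_at or _x_at, through CA12, and 0 under the other 9. Without those probe sets CA1 was not measured, and the difference between the erythroid isozymes and the others could not be computed. Centring subtracted 0.12 from every log2 ratio, and the mean of CA1 and CA2 was then -0.002. The median of the members ran from 0.08 by the median over eligible probe sets to 0.37 without those whose names end in _s_at or _x_at. Where both signals had to reach the median, 31 genes of the array were over 3-fold higher and 60 lower, against 1116 and 769. The counts were 4 and 46 with the filter at percentile 75, 72 and 32 with the array median added, 84 and 66 with low signals raised, 745 and 381 by the median over probe sets, and 3758 and 2147 without a filter. No paired analysis was possible because there was 1 array per condition. In bins 1 to 5, counted from the dimmest, the SD between probe sets of 1 gene was 1.37 or more, and the main probe sets of CA4 and CA12 lie there.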
